A study of Homo sapiens with 6 samples.

Results

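Agrin and the acetylcholine receptor belong to the neuromuscular junction, and 9 genes of that system were examined here in a myeloma cell line: AGRN, CHRNA1, CHRNB1, CHRND, CHRNE, LRP4, MUSK, RAPSN and DOK7. They were taken as every probe set whose platform annotation named 1 of these genes and no other, which gave 19 of the 47481 probe sets on the array. The set was chosen by the log2 difference between the groups, since AGRN and CHRNA1 had been seen among the largest increases with epirubicin, so the difference of each of the 9 genes between the groups is given below as a description and not as a test. All 9 genes were represented, AGRN and CHRNA1 by 2 probe sets each, CHRNB1 by 4, CHRND by 6 and the other 5 genes by 1 each, and 0 probe sets named a member together with another gene. With epirubicin CHRNA1 was 3.80-fold and AGRN 3.85-fold above control on their brightest probe sets, while none of the other 7 genes reached a 1.3-fold difference in either direction. The other AGRN probe set was 1.04-fold of control and was not called.

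The cells were MM.1R, a human multiple myeloma line resistant to glucocorticoids, profiled on Affymetrix PrimeView arrays. In the control group, shCtrl, the cells of 3 arrays were infected with a vector carrying a control short hairpin. In the drug group, the cells of 3 arrays received Epirubicin Hydrochloride, an anthracycline that poisons topoisomerase II, which the submitters added to stop proliferation. The medium was the same serum-containing one in both groups, and dose and duration of the drug are not stated in the labels. Since only control cells are described as infected, effects of the drug and of the missing vector cannot be told apart. Whether replicate arrays stem from different cultures is not stated either, so the p-values reflect the scatter among these arrays, part of which may be technical.

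At the endplate of skeletal muscle, agrin released by the motor nerve binds LRP4, which activates the receptor tyrosine kinase MuSK together with the adaptor DOK7, and rapsyn then anchors acetylcholine receptors in dense clusters. The adult muscle receptor is a cation channel built of alpha, beta, delta and epsilon subunits, encoded by CHRNA1, CHRNB1, CHRND and CHRNE, with the gamma subunit in place of epsilon before birth. Agrin is also a heparan sulphate proteoglycan of basement membranes outside muscle, and haematopoietic cells are among the cells known to make it.

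Muscle subunit genes are read through promoter elements that are textbook examples of endplate control. One is the E-box, CANNTG, bound by myogenic basic helix-loop-helix factors. The other is the N-box, CCGGAA, bound by ETS factors, and both strands were searched for each. The stretches below are shown because the alpha subunit gene differed between the groups while the delta and epsilon subunit genes did not pass the threshold. They come from RefSeq's GRCh38.p14 windows and run 5′ to 3′ on the gene's own strand, with E-boxes and N-boxes in capitals in the first and second, and the N-box alone in the third.
CHRNA1, the 250 bases before its start site, chr2:174764473-174764722, minus strand: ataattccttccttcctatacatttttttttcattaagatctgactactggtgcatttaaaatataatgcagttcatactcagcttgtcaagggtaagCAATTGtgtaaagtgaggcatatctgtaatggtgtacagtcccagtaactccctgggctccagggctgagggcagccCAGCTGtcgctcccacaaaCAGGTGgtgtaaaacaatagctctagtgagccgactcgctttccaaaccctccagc
CHRND, the 250 bases before its start site, chr2:232525910-232526159, plus strand: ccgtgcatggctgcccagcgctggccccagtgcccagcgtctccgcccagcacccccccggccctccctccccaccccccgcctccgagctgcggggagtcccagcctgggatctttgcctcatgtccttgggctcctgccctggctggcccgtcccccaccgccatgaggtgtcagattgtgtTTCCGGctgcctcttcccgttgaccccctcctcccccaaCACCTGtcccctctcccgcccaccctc
CHRNE, 30 bases around its N-box, chr17:4903143-4903172, minus strand: tcccctaacagcCCGGAActaacaccctcc

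Of the 9 genes, 6 had a window in that table (7 windows), and AGRN, LRP4 and RAPSN had none. The CHRNA1 stretch held 3 E-boxes, whose first bases lay 152, 75 and 56 bases before the start site, and 0 N-boxes. CHRNB1 held 4 E-boxes, CHRNE 4, MUSK 3 and CHRND 1. DOK7 held 1 in the first of its 2 windows and 0 in the second. The N-box was found in CHRND, 66 bases before the start site, and in CHRNE, 62 bases before it, and in no other of these windows. Over all 35116 windows of the table, 61.8% held an E-box and 14.5% an N-box within the same 250 bases, so an E-box in a window is common. The single decamer of the p53 response element, searched by name on both strands, was found in 0 of the 7 windows and in 5.57% of all windows. The full p53 site, a pair of such decamers close together, was in 0 of the 7 and in 0.0256% of all. A match or its lack describes these letters only. E-boxes were thus present upstream of CHRNA1 and likewise upstream of CHRNB1, CHRND, CHRNE, MUSK and, in 1 of its 2 windows, DOK7.

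Values are the deposited log2 expression values, 1 per probe set and array, on which a step of 1 is a doubling. Probe sets bind with different strength, so levels are compared between arrays for 1 probe set and not between genes. Each log2 difference is the mean of the epirubicin arrays less that of the control arrays, given with its standard error (SE) and 95% confidence interval (CI) from limma. A gene or probe set was called at an adjusted p under 0.05 over the whole table together with a fold change of at least 1.3, a log2 difference of 0.379. Over all probe sets, Pearson's r was 0.9982 to 0.9985 for arrays within a group and 0.9945 to 0.9947 between the groups.

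CHRNA1, the alpha subunit that carries the acetylcholine binding site, was higher on both of its probe sets. On 11740288_a_at the control arrays read 5.13, 5.22 and 5.11 and the epirubicin arrays 7.07, 7.06 and 7.11. The 3 drug arrays stood together, far above the 3 control arrays. The means were 5.15 ± 0.06 and 7.08 ± 0.02 (SD, n = 3), a difference of 1.93 (SE 0.04, CI 1.82 to 2.03). On 11741163_a_at the control arrays read 5.20, 4.90 and 4.97 and the epirubicin arrays 6.65, 6.65 and 6.79. The groups again did not overlap, with a difference of 1.67 (SE 0.09, CI 1.46 to 1.87), or 3.18-fold. The gene had thus the same direction on both readings, while each estimate lay outside the interval of the other.

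AGRN, the proteoglycan that starts clustering of the receptor, was higher on 1 of its 2 probe sets. On 11732450_s_at the control arrays read 4.97, 5.05 and 5.12 and the epirubicin arrays 7.07, 6.83 and 7.08, a difference of 1.94 (SE 0.08, CI 1.76 to 2.13). Every drug array lay above every control array, with the second drug array the lowest of the 3. On 11732451_a_at the control arrays read 5.78, 5.61 and 5.69 and the epirubicin arrays 5.83, 5.77 and 5.66. Here the groups overlapped, and the difference was 0.06 (SE 0.06, CI -0.09 to 0.21). The means of the second probe set were 5.69 ± 0.08 in control and 5.75 ± 0.09 with epirubicin (SD, n = 3).

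Which AGRN probe set is read decides whether the gene is called. The first was the brighter over the 6 arrays, but the second was the brighter in control arrays, and choosing it there brought the AGRN difference to 0.06 and ended the call. The mean of both probe sets differed by 1.00, against 1.80 for the mean of both CHRNA1 probe sets. By Affymetrix naming, the suffix s marks a probe set that can match transcripts of more than 1 gene and the suffix a one that matches several transcripts of a single gene. The platform annotation named AGRN alone for both, and which transcripts each one reads was not tested.

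**Figure D1:**
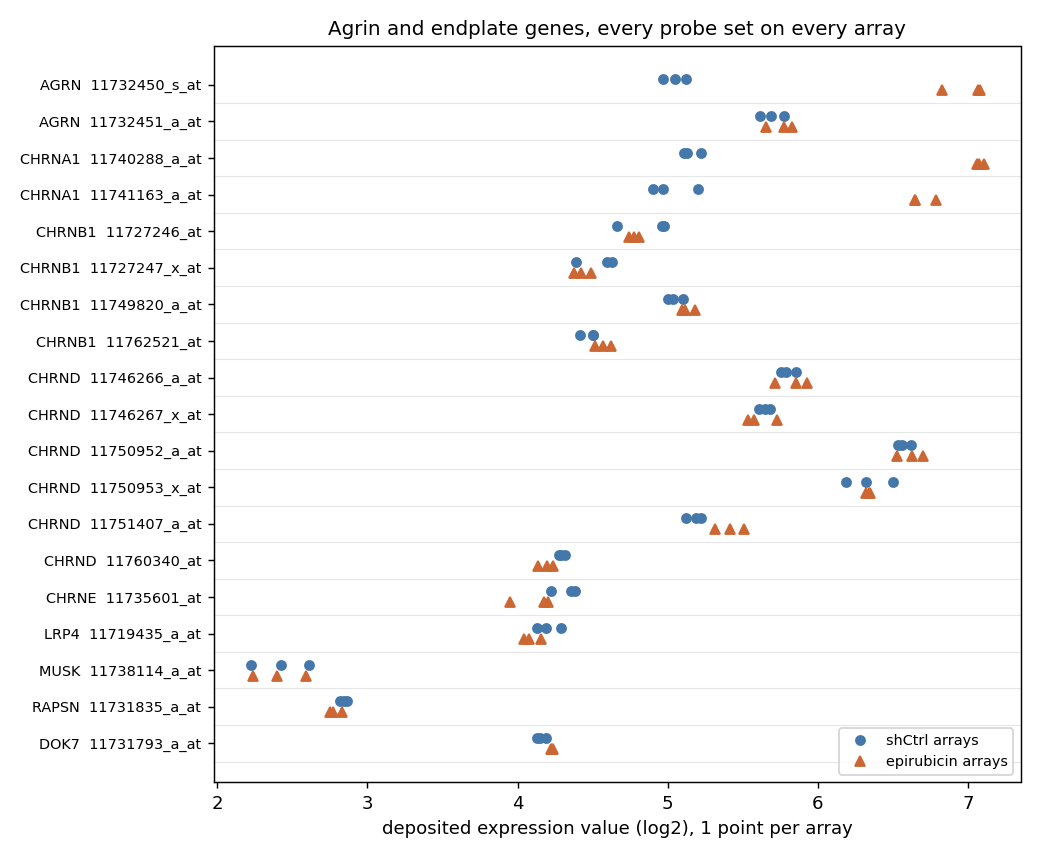
Deposited log2 expression value (horizontal axis) of each of the 19 probe sets (rows) on every array, with circles for the 3 shCtrl arrays and triangles for the 3 epirubicin arrays. The triangles stand far to the right of the circles on both CHRNA1 probe sets and on 1 AGRN probe set (6.83 to 7.08 against 4.97 to 5.12), and lie close to them elsewhere.

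The other subunits of the muscle receptor stayed under the fold threshold. CHRNB1, the beta subunit, read 5.04, 5.10 and 5.00 on its brightest probe set (11749820_a_at) in control arrays and 5.12, 5.10 and 5.18 with epirubicin, which overlap. The difference was 0.08 (CI -0.02 to 0.19). Its other 3 probe sets differed by -0.09, -0.11 and 0.09, so the 4 readings did not share a sign. Of these, 11762521_at had no overlap between the groups, at 4.42 to 4.50 in control and 4.52 to 4.62 with epirubicin. The probe sets 11727246_at and 11727247_x_at share a source transcript in the platform annotation. They may therefore not be separate measurements of the gene, which was not tested.

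CHRND, the delta subunit, read 6.53, 6.56 and 6.62 on its brightest probe set (11750952_a_at) in control arrays and 6.70, 6.63 and 6.53 with epirubicin. The groups overlapped and the difference was 0.05 (CI -0.08 to 0.18). Its 6 probe sets ranged from -0.10 to 0.24. The highest, 11751407_a_at, read 5.13, 5.22 and 5.19 in control and 5.42, 5.51 and 5.31 with epirubicin, with no overlap and a difference of 0.24 (CI 0.10 to 0.38). The lowest, 11760340_at, lay the other way without overlap, at 4.27 to 4.32 in control and 4.14 to 4.24 with epirubicin. Probe sets of the same gene thus parted in both directions by amounts under the fold threshold. The other 4 lie in pairs that share a source transcript, and their groups overlapped.

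CHRNE, the epsilon subunit of the adult receptor, has 1 probe set, which read 4.38, 4.35 and 4.22 in control arrays and 4.17, 4.20 and 3.95 with epirubicin. The 3 drug arrays lay below the 3 control arrays, though the nearest values, 4.22 and 4.20, almost met. The difference of -0.21 (SE 0.08, CI -0.40 to -0.02) was under the fold threshold, though the interval reached past it. The gene overlaps C17orf107 on the chromosome, and that gene differed by -0.02.

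The agrin receptor and its partners did not differ by 1.3-fold either. LRP4, the receptor of agrin, read 4.29, 4.19 and 4.13 in control and 4.05, 4.08 and 4.15 with epirubicin, with overlap and a difference of -0.11 (CI -0.24 to 0.02). MUSK, the kinase, read 2.22, 2.61 and 2.43 in control and 2.24, 2.59 and 2.40 with epirubicin, nearly the same set of values, with a difference of -0.01 (CI -0.30 to 0.28). DOK7, the adaptor that activates MuSK from inside the cell, read 4.13, 4.15 and 4.19 in control and 4.24, 4.23 and 4.22 with epirubicin. The DOK7 groups did not overlap, but the difference was only 0.07 (CI -0.01 to 0.15).

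RAPSN encodes rapsyn, the scaffold under the receptor. It read 2.82, 2.87 and 2.85 in control and 2.77, 2.75 and 2.83 with epirubicin, with overlap and a difference of -0.06 (CI -0.15 to 0.03). MUSK and RAPSN lay under the lower quartile of all probe sets (3.841 to 3.901) on all 6 arrays. Detection calls were not used here, so a transcript at such a level cannot be told from background.

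Counted together, 2 of the 9 genes were called higher and 0 lower in limma, beside 4.36% higher and 2.14% lower of all 17534 genes. Because that contrast chose AGRN and CHRNA1, nothing is read from this share. Among the other 7 genes 0 were called and 1, CHRNE, had an unadjusted p under 0.05. Their log2 differences ran from -0.21 to 0.08 with a median of -0.01, beside a median of 0.02 over all genes. By probe set, 3 of the 19 were called higher and 0 lower, beside 3.65% and 2.62% of all probe sets, or 6.27% in either direction. Over all probe sets the balance turned with median centring, from 1735 higher and 1242 lower to 1478 higher and 1633 lower, and over all genes it went from 765 and 376 to 646 and 485. Of the 15 probe sets of the other 7 genes, 3 had an unadjusted p under 0.05, and 14 had a CI that lay inside the fold threshold on both sides, CHRNE being the exception. The arrays of 1 group all lay beyond those of the other in 4 of the 9 genes, where 43.8% of all genes did so, and in 8 of the 19 probe sets, where 41.2% of all did. In these arrays CHRNA1 was therefore higher on both probe sets and AGRN on 1 of 2. No estimate for the other 7 genes reached 1.3-fold, though the CHRNE interval passed it. MUSK and RAPSN lay under the lower quartile on every array. Every probe set of CHRNB1, CHRNE, LRP4 and DOK7 lay under the median of each array. Without detection calls, a difference in any of these genes could be missed. In bulk samples such as these, a change in the share of cells with a transcript and a change in the RNA per cell cannot be told apart.

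**Figure D2:**
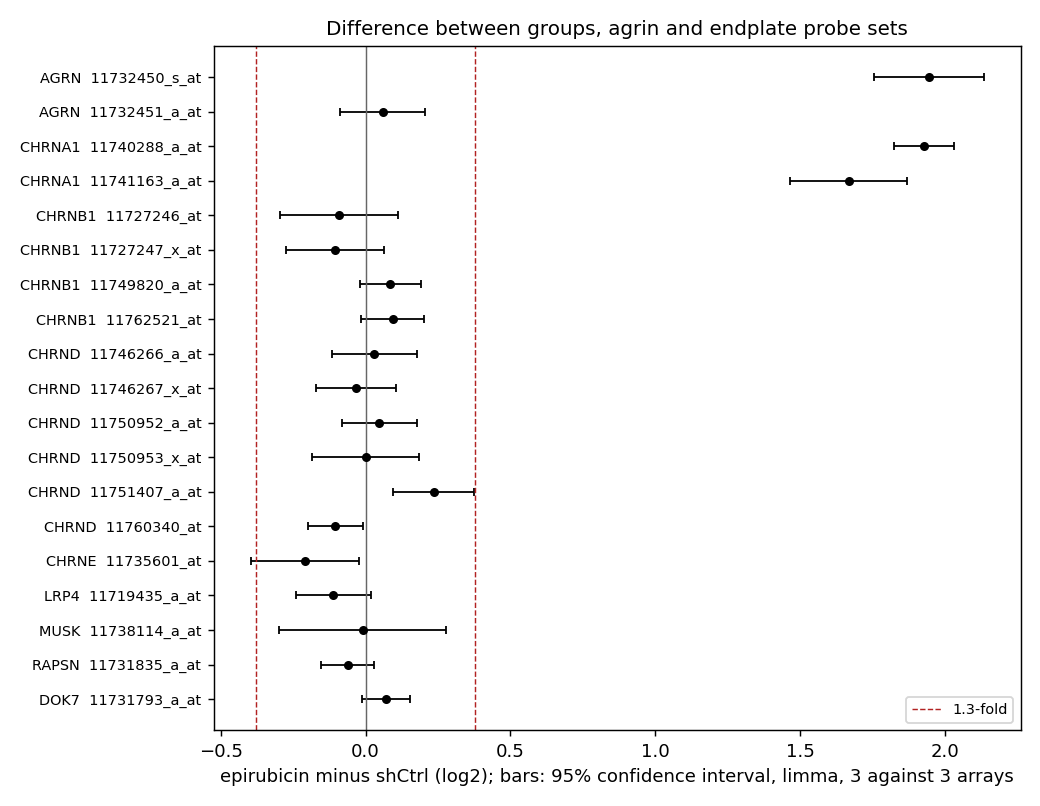
Epirubicin minus shCtrl on the log2 scale (horizontal axis) for each of the 19 probe sets, with points for limma's estimate over 3 against 3 arrays and bars for the 95% confidence interval. Dashed lines mark a 1.3-fold difference. CHRNA1 (1.93 and 1.67) and 1 AGRN probe set (1.94) lie far to the right, and 15 of the remaining 16 intervals lie between the dashed lines.

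Genes around the junction were counted in 9 further lists drawn up by function, which together held 163 measured genes besides the members. Of these, 7 were called higher and 1 lower, or 4.91%, where 6.51% of all genes were called in either direction. Their median difference was 0.02, the same as that of all genes. As a whole, genes of these lists were thus called at a share near the background. At an adjusted p under 0.05 without a fold threshold, 2744 of all 17534 genes were higher and 2362 lower in limma. Small p-values without a fold threshold were thus common over the whole table.

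Among the nicotinic receptor subunits outside the adult muscle receptor, 1 of 10 was called higher and 0 lower (median -0.02). Over all genes 4.36% were called higher and 2.14% lower. The called subunit was CHRNA6, which belongs to neuronal receptors and is known from dopamine neurons. Its 1 probe set read 5.10, 5.08 and 5.12 in control and 5.63, 5.69 and 5.80 with epirubicin, without overlap, and it rose by 0.61 (SE 0.05, limma adjusted p = 0.000296). CHRNG, the gamma subunit of the fetal muscle receptor, was under the fold threshold and not called (0.17). Its groups did not overlap, and its limma adjusted p was 0.0167. At any fold, 2 of the 10 subunits had a limma adjusted p under 0.05. The remaining 8 subunits lay between -0.14 and 0.05.

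Of 32 genes of MuSK signalling and the endplate scaffold, such as the kinases ABL1 and SRC, the adaptor CRKL and the cytoskeletal linker utrophin (UTRN), 0 were called in limma. They lay between -0.33 and 0.27 with a median of -0.04, and 17 had an unadjusted p under 0.05. At any fold, 14 of the 32 had a limma adjusted p under 0.05. Of 16 genes of neuregulin signalling and endplate transcription, which include the receptor ERBB2, the ETS factors GABPA and ETV5 and the myogenic factors MYOD1 and MYOG, 0 were called and 6 had an unadjusted p under 0.05. Their range was -0.13 to 0.23, and 3 of the 16 had a limma adjusted p under 0.05 at any fold. On the brightest probe sets, differences in both lists were thus below 1.3-fold. Other probe sets of 4 of these genes were called, 1 each, lower for the GTPase CDC42 (-0.40, of 9) and the kinase subunit CSNK2A1 (-0.44, of 4), and higher for the syntrophin SNTB1 (0.39, of 5) and the growth factor NRG1 (0.46, of 8).

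Of 11 genes of the synaptic cleft and the muscle sodium channel, among them acetylcholinesterase (ACHE), its anchor COLQ and the agrin-cleaving protease neurotrypsin (PRSS12), 0 were called in limma and 5 had an unadjusted p under 0.05 (range -0.17 to 0.31). Of 17 genes of receptor assembly, glycosylation and acetylcholine supply, such as the assembly chaperone RIC3 and GFPT1, the first enzyme of hexosamine synthesis, 0 were called and 9 had an unadjusted p under 0.05 (range -0.29 to 0.16). At any fold, 2 of the 11 and 5 of the 17 had a limma adjusted p under 0.05. These counts take the brightest probe set of each gene. LAMC1, a laminin chain of the cleft list, was 0.31 there but was called higher on 2 of its 5 probe sets (0.45 and 0.56), and GFPT1, at -0.29, was called lower on 1 of its 5 (-0.38).

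Agrin carries heparan sulphate chains. Of 18 other core proteins of such proteoglycans 1 fell and 0 rose, beside 2.14% and 4.36% of all genes. GPC6, a glypican anchored to the membrane by a lipid, read 5.28, 5.52 and 5.21 in control and 4.53, 4.52 and 4.66 with epirubicin. It was lower by -0.77 (SE 0.09, limma adjusted p = 0.000996) on 1 of its 4 probe sets, and as the mean of the 4 it differed by -0.17 and was not called. Without control replicate 3 a core protein gene was called higher as well. The basement membrane proteoglycan HSPG2, or perlecan, which shares laminin G domains with agrin, differed by -0.06, and SDC1, the syndecan of plasma cells, by -0.06.

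Of 28 genes that build or trim the chains, 1 rose and 0 fell (median 0.06), beside 4.36% and 2.14% of all genes. HS3ST1, a sulphotransferase, read 6.17, 6.30 and 6.25 in control and 6.82, 6.70 and 6.83 with epirubicin, a rise of 0.54 (SE 0.05, limma adjusted p = 0.000594). This held on 1 of its 2 probe sets, and the mean of both, 0.37, was not called. The count of risen genes was 2 without control replicate 2.

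LRP4 also acts outside muscle, as a partner of sclerostin in Wnt signalling of bone. Of 15 relatives of LRP4 and Wnt antagonists, 3 rose and 0 fell, beside 4.36% and 2.14% of all genes. The list median was 0.01. DKK1, a secreted Wnt antagonist known for its part in myeloma bone disease, read 5.71, 5.69 and 5.56 in control and 6.42, 6.23 and 6.50 with epirubicin, a rise of 0.73 (SE 0.08). DKK2, of the same family, was called on both of its probe sets, which differed in size, with a rise of 0.54 (SE 0.10) on the brighter and 1.63 (SE 0.16) on the other. Both lay under the lower quartile of the arrays in control, with means of 3.69 and 2.73, and the mean of both probe sets rose by 1.08. VLDLR, a lipoprotein receptor related to LRP4, was at the threshold with 0.41 (SE 0.09). Its call ended without control replicate 3 (0.38), without epirubicin replicate 1 (0.32), with quantile normalization (0.38) and with median centring (0.37). The largest limma adjusted p of the 3 was 0.0145, for VLDLR.

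Agrin has been described as a signal to the transcriptional coactivator YAP through focal adhesions. Of 16 genes of that axis, 2 rose and 0 fell (median 0.08), beside 4.36% and 2.14% of all genes. LATS2, a kinase that restrains YAP, read 4.70, 4.45 and 4.70 in control and 5.27, 5.52 and 5.46 with epirubicin, a rise of 0.80 (SE 0.09) on 1 of its 3 probe sets, with a mean over the 3 of 0.47 that was still called. CCN2, a secreted protein and a target of YAP, rose by 0.44 (SE 0.09) on its brightest probe set and was called on 2 of 3, and its call ended without control replicate 1 (0.35) and without epirubicin replicate 3 (0.37). The adjusted p of both ran up to 0.0130 in limma. Without control replicate 3, and with median centring, 1 gene of the list was called lower. WWTR1, the YAP relative TAZ, was not called on its brightest probe set (0.08) but was on 1 of its 3 (0.52).

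Marker lists of plasma cells and of other cell types were read in the same way. Of 13 plasma cell markers 2 were lower and 0 higher, beside 2.14% and 4.36% of all genes. The 2 were CD38, a surface enzyme (-1.18), and IRF4, a plasma cell transcription factor (-0.49). The other 11, among them SDC1 and the surface antigen TNFRSF17, lay between -0.24 and 0.25, and 6 of the 13 had a limma adjusted p under 0.05 at any fold. In the list, 0 of the 13 lay under the lower quartile on every array, and the mean level per array was 9.945 to 9.95 in control and 9.803 to 9.829 with epirubicin. Of 22 skeletal muscle markers, from desmin (DES) to the ryanodine receptor RYR1, 0 were called in limma and 4 had an unadjusted p under 0.05. Their mean level per array was 4.09 to 4.12 in control and 4.12 to 4.17 with epirubicin, and 9 of the 22 lay under the lower quartile on every array. The myogenic factors MYOD1 and MYOG lay at 3.29 and 4.03 in control and 3.36 and 4.23 with epirubicin. TTN, the giant sarcomere protein titin, had the highest difference of the list (0.37) and was not called. CASQ1, a calcium-binding protein of muscle, was called on 1 of its 3 probe sets (0.48) but not on the brightest (0.07), and 1 muscle marker was called higher without epirubicin replicate 1 or without epirubicin replicate 3.

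Of 13 neuronal and Schwann cell markers 0 were called in limma and 3 had an unadjusted p under 0.05 (range -0.14 to 0.23). Their mean level per array was 5.03 to 5.13 in control and 5.05 to 5.11 with epirubicin. Of 9 epithelial markers 0 were called and 2 had an unadjusted p under 0.05, with 1 called lower without epirubicin replicate 2. Their mean level was 4.88 to 4.91 in control and 4.92 to 4.99 with epirubicin.

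Of 16 markers of fibroblasts and stroma 3 were higher and 0 lower, beside 4.36% and 2.14% of all genes. The other 13 were not called and lay between -0.11 for COL3A1 and 0.29 for THY1. ACTA2, smooth muscle actin, was 1.55 (SE 0.25) higher on 1 of its 3 probe sets, the other 2 were not called (-0.03 and 0.23), and the mean of the 3 was 0.58. FN1, fibronectin, was 0.98 (SE 0.04) higher on its brightest probe set and called on 6 of 8, with a mean over the 8 of 0.56. VIM, the intermediate filament vimentin, was 0.39 (SE 0.03) higher on 1 of 2 and lost its call under median centring (0.36). VIM means were 12.01 in control and 12.40 with epirubicin. Their list's mean level per array was 4.53 to 4.59 in control and 4.75 to 4.82 with epirubicin, and 5 of the 16 lay under the lower quartile on every array. All arrays were of the MM.1R line, so the marker lists name genes and not cells known to be present. A link of these genes to the AGRN and CHRNA1 values was not tested.

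**Figure D3:**
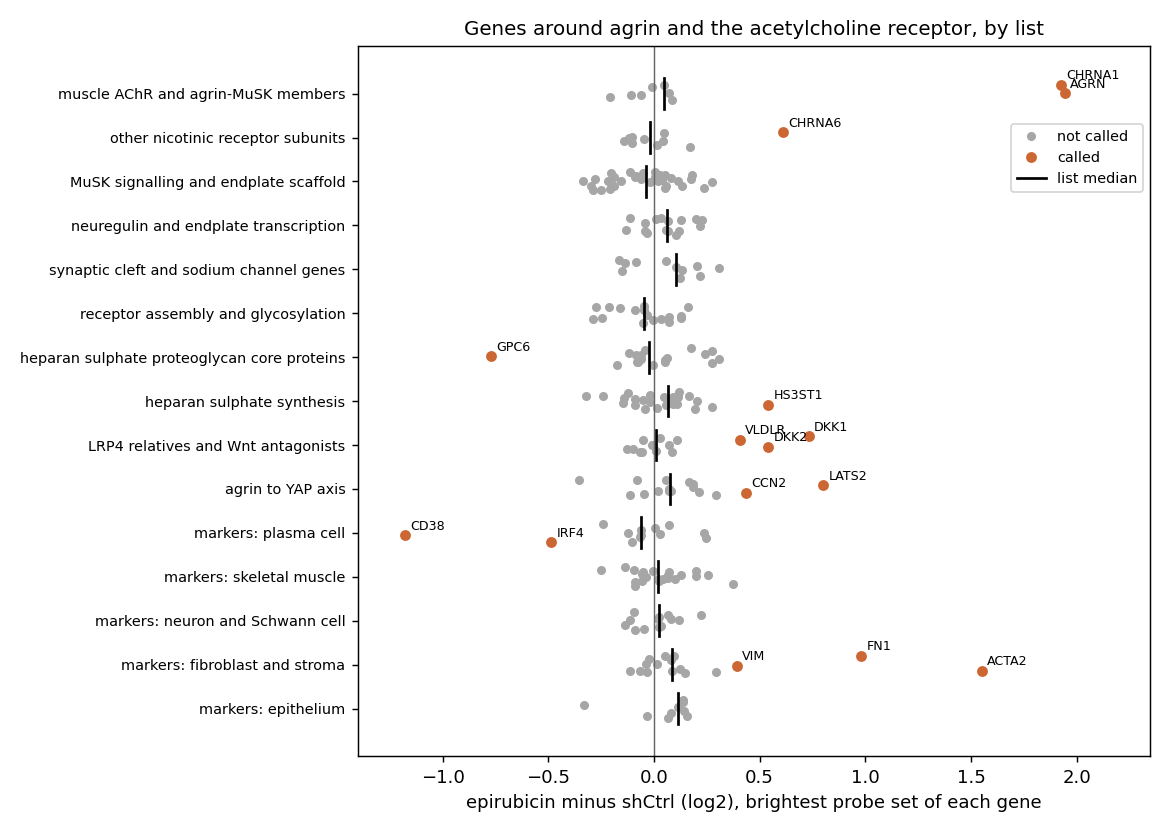
Epirubicin minus shCtrl on the log2 scale (horizontal axis) for each measured gene of the 9 endplate members, the 9 functional lists and the 5 marker lists (rows), with the brightest probe set standing for the gene. Orange points are called genes, grey points are not, and black bars are list medians. AGRN and CHRNA1 lie furthest to the right at 1.94 and 1.93, and the list medians stay between -0.06 and 0.11.

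The genes whose values over the 6 arrays were most like those of AGRN and CHRNA1 were found from the root mean square difference between profiles, after the mean of the control arrays had been subtracted from each gene. For CHRNA1 the nearest of the 17534 genes was PMAIP1, the gene of NOXA, a protein that promotes apoptosis (0.054). It was followed by CDKN1A, the cyclin-dependent kinase inhibitor p21 (0.057), the kinase gene PLK2 (0.068), the cornified envelope gene LCE1E (0.074) and AGRN (0.096). For AGRN, read on its brighter probe set, the nearest was CHRNA1 (0.096), then CDKN1A (0.107), PMAIP1 (0.110), PLK2 (0.126) and LCE1E (0.152). The 6 genes were thus close in size of difference, with log2 differences from 1.88 for CDKN1A to 1.98 for PMAIP1. Distances were taken from AGRN and CHRNA1 only. These 2 were chosen as large increases, so nothing is read from their nearness to each other. The measure rests on 6 arrays in 2 groups and mainly ranks genes by the size of that 1 difference.

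**Figure D4:**
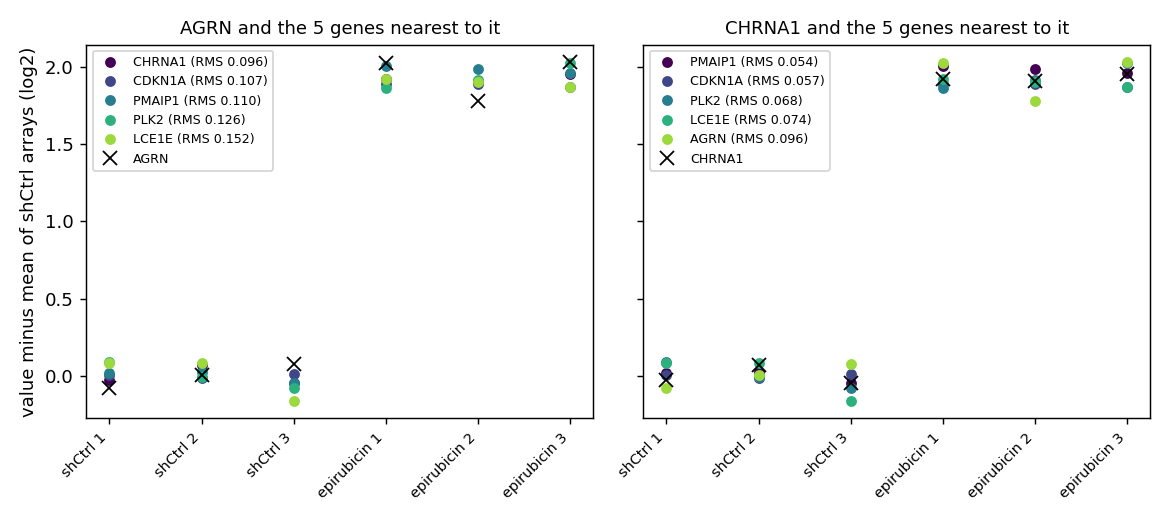
Log2 value minus the mean of the shCtrl arrays (vertical axis) on each of the 6 arrays (horizontal axis) for AGRN (left, crosses) and CHRNA1 (right, crosses) with the 5 genes of smallest root mean square (RMS) difference from each as circles. On the epirubicin arrays all of them stand close to 2, and AGRN on the second of them is the lowest epirubicin value of its panel.

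Chromosomal neighbours of the 9 genes were read as well, the 5 measured genes on either side of each. Of the 90 neighbours 3 were called higher and 3 lower, or 6.67%, beside 6.51% of all genes, and their median difference was 0.02. Beside AGRN on chromosome 1, only the adjacent interferon-stimulated gene ISG15 was called of 10, at 0.39 (SE 0.03), a call that ended without control replicate 1 (0.37), without epirubicin replicate 2 (0.37) and under median centring (0.36). The next gene on the other side, RNF223, was not called (0.004). Beside CHRNA1 on chromosome 2, the adjacent gene CHN1, a regulator of RAC signalling, fell (-0.79, SE 0.04), and GPR155, on the other side of WIPF1, rose (0.58, SE 0.06) and was called on 3 of its 6 probe sets, with a mean over the 6 of 0.37 that was not called. WIPF1 itself was not called (0.06).

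LRP4 on chromosome 11, which was not called, lies 4 measured genes from DDB2, a DNA damage recognition gene that rose by 1.79 (SE 0.04) and was called on both of its probe sets, and next to CKAP5, a microtubule-associated gene that fell by 0.56 (SE 0.04) on the log2 scale. Beside DOK7, LYAR, a nucleolar protein gene, was lower (-0.39, SE 0.03), and lost its call without epirubicin replicate 1 (-0.38) and with quantile normalization (-0.36). Around CHRNB1, CHRND, CHRNE, MUSK and RAPSN 0 of 10 were called in limma, with 2, 2, 5, 2 and 5 at an unadjusted p under 0.05. Of all 90 neighbours, 28 had an unadjusted p under 0.05.

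**Figure D5:**
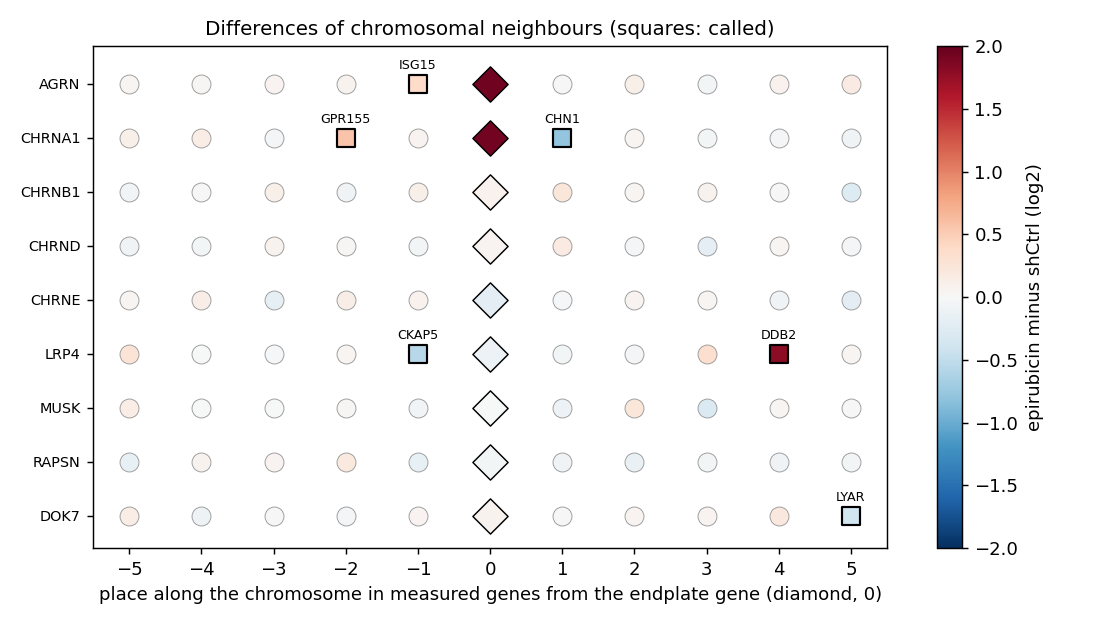
Each row is 1 of the 9 genes (diamond at 0) with the 5 measured genes on either side of it along its chromosome (horizontal axis, in gene order, not distance); the colour is epirubicin minus shCtrl on the log2 scale and squares are called genes. The called neighbours are ISG15, GPR155, CHN1, CKAP5, DDB2 and LYAR.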

How the data were processed

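The table held the authors' deposited log2 values for 47481 probe sets on 6 arrays. No label states the scale, which was inferred from the range of values. Per the submitters' processing notes the affy package was used, with no version; how background, normalization and probe summary were handled is not stated there. Array medians were 5.522 to 5.570, and nothing further was normalized; the number of arrays limits the precision. Of the probe sets 43976 named 1 gene, 1558 several and 1947 none. Symbols were updated by Entrez number against RefSeq (43954 matched). Each of 17534 genes was read from its brightest probe set over all arrays.

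The comparison used lmFit and eBayes of limma 3.58.1 under R 4.3.3 without covariates, with Benjamini-Hochberg adjustment over all genes or all probe sets, at the series' own thresholds. The fit was tested only on simulated data with independent noise, which cannot show effects of shared cultures or of the missing vector. Named are all 9 members, called genes of each list (up to 4 per direction), the 5 genes most like AGRN and CHRNA1, and called neighbours. Examples among the uncalled genes, and uncalled genes with a called probe set, were picked with their values in view. The members and lists were chosen with earlier results of these data known. Alternatives changed the probe set choice, normalization, filter, variance trend, fold threshold, arrays and replicate block. A planned comparison of subunit proteins was not made.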

Additional observations from a re-analysis of the deposited data

How the results depend on the processing

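CHRNA1 kept its direction and its call in all 15 alternatives (1.80 to 1.96), and AGRN in 14 of 15, with 0.06 on the probe set that is brighter in control arrays, which left 1 of the 9 genes called. The other 7 genes were called in no alternative as genes; without a fold threshold the CHRND probe set at 0.24 was. None of the 9 genes was called lower in these alternatives. MUSK, RAPSN, CHRNE, LRP4, DOK7 and CHRNB1 gave no value under the filter on dim features (higher group mean above 5.545). CHRNA1 and AGRN passed that filter only through the epirubicin group, with means of 7.08 and 6.99 against 5.15 and 5.05 in control. Both were chosen on this contrast, so their kept calls describe the processing and are no further support for the difference.

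For the 163 genes of the functional lists, 7 higher and 1 lower became 27 and 21 without a fold threshold, 3 higher at 1.5-fold, and 3 and 0 under the filter. The count lower was 0 with means over probe sets, 2 with median centring, and 1 to 2 when single arrays were left out (2 without control replicate 3). Over all genes the counts were 2744 higher and 2362 lower without a fold threshold, and 320 and 101 at 1.5-fold; over all probe sets they were 5589 and 6318, and 700 and 292. The filter tests fewer features and a fold threshold only cuts the list; for the other changes the cause was not tested.

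Replicate numbers are shared between the groups, but deviations of same-numbered arrays correlated at -0.03, 0.02 and 0.001, and 1 of 6 arrays correlated best with its own number. With the replicate block 755 genes were higher and 372 lower, and 2 of the 9 genes were called. Normalization moved the median of all genes to 0.01 at most in size from 0.02.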
